A study of Drosophila melanogaster with 4 samples.

Results

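Smc3 clusters along the euchromatic body of chromosome arm 3L of Drosophila melanogaster were many and narrow. Of 215 windows of 100 kb, 5 had no cover in replicate 1 and 14 had none in replicate 2. Outside the clusters of both replicates lay 60 stretches longer than 50 kb. Under 50% of the clusters in either replicate were found in the other, against 51.8% (replicate 1) and 54.6% (replicate 2) over the whole series. The shares were also under 50% on the like parts of arms 2L and 3R. The regions were chosen by position alone, as the clusters on 3L whose midpoint lay more than 1 Mb from the telomere-side end and more than 2 Mb from the centromere-side end of its sequence of 24543557 bases on FlyBase release 5. No measured value entered this rule, although earlier results of these data were known when it was set. This gave 938 of the 7858 clusters of ChIP replicate 1, 744 of the 6505 of replicate 2 and 2492 of the 15783 regions in the authors' replicate-set list, of which 2491 were marked as enriched and 1 as depleted.

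Chromatin came from nuclei of wild-type larvae of instar 3 of the strain Oregon-R. It was precipitated with the affinity-purified rabbit polyclonal antibody Smc3 Q2580, raised against a stretch of Smc3. The series held 2 Smc3 ChIP samples and 2 Input samples, all of that genotype, stage and preparation, and no other treatment was labelled. Cluster lists were analysed here for each ChIP sample and for the replicate set. Nuclei of whole larvae mix many tissues, so a cluster bound in few cells and one bound weakly in all cells cannot be told apart. The free-text description of ChIP replicate 2 names input DNA alone, and its place in the ChIP group rests on its title and source name. The labels do not state whether each replicate was a separate collection of larvae, and differences between the lists may be technical. All 3 lists give a score per cluster, read here as a log2 value. What it is a ratio of is not stated in the files (presumably ChIP over control). The depth of the samples is unknown. With 2 replicates of 1 condition the study allows no test between conditions, so values are given per replicate or as a mean with the SD over 2 replicates.

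Smc3 is one of the long coiled-coil subunits of cohesin, the ring that also holds Smc1, the kleisin Rad21 (Verthandi in flies) and the SA protein. Cohesin keeps sister chromatids together from replication to division, and it also forms loops within a chromosome in interphase. In flies it is loaded by Nipped-B, and in cultured fly cells it is known mainly from transcribed genes of the euchromatin, beside its place around the centromeres.

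Clusters covered 8.87% of the bases of euchromatic 3L in replicate 1 and 6.08% in replicate 2, a mean of 7.48% ± 1.97 (SD, n = 2). There were 43.5 clusters per Mb in replicate 1 and 34.5 in replicate 2, a mean of 39.0 ± 6.37 per Mb (SD, n = 2). Replicate 1 thus held more clusters and more cover. The replicate-set list was denser than both, with 116 enriched clusters per Mb and 20.2% of bases covered. Just inside the telomere-side bound lay a cluster of replicate 1 from 999826 to 1001185 with a score of 0.55, and just outside it one from 975893 to 977800 with a score of 0.32. At the centromere-side bound the last cluster inside, from 22487781 to 22489723, scored 0.34 and the first outside, from 22545078 to 22546453, scored 0.75. In replicate 2 the clusters on either side of the telomere-side bound scored 0.50 inside, from 1045459 to 1047414, and 0.55 outside, from 938398 to 940334. Those at the centromere-side bound scored 0.80 inside, from 22483670 to 22485113, and 1.27 outside, from 22548459 to 22549794. In the replicate-set list the clusters nearest the telomere-side bound scored 0.50 inside, from 1007932 to 1008970, and 0.48 outside, from 995464 to 997344. Nearest the centromere-side bound they scored 0.58 inside, from 22503914 to 22505350, and 0.50 outside, from 22545022 to 22546924.

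Widths near 2 kb were more common in replicate 1 than in replicate 2. The median width was 1982 bp in replicate 1, with quartiles of 1660 and 2083 bp, and 359 of the 938 clusters (38.3%) were between 1900 and 2100 bp wide. In replicate 2 the median was 1619 bp, with quartiles of 1429 and 1975 bp, and 120 of the 744 clusters (16.1%) lay in that band. Most clusters of replicate 2 were narrower than that band. Both lists had nearly the same lower limit: the narrowest was 1303 bp in replicate 1 and 1301 bp in replicate 2. The replicate-set list went down to 1001 bp, the width of 67 of its clusters. Clusters of 4 kb or more numbered 19 in replicate 1 and 6 in replicate 2. The widest of replicate 1, from 2571744 to 2580638, was 8895 bp long with a score of 0.72, and it overlapped no cluster of replicate 2. The widest of replicate 2, from 18593704 to 18598908, was 5205 bp long with a score of 0.94 and overlapped 1 cluster of replicate 1, with a score of 0.73. No cluster of either replicate thus reached 10 kb on this stretch of the arm.

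**Figure D1:**
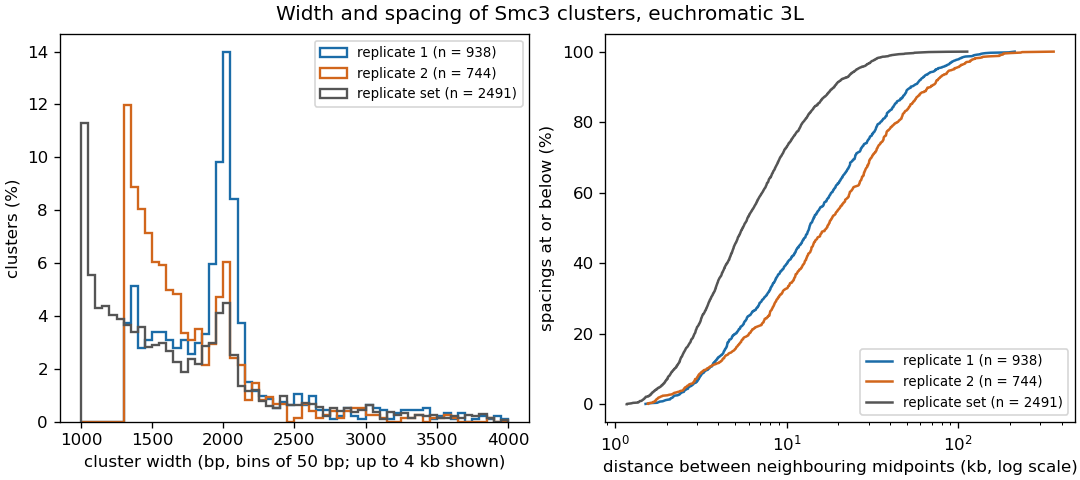
Width of clusters (bp, bins of 50 bp, percent of clusters) and distance between midpoints of neighbouring clusters (kb, log scale, cumulative percent) on euchromatic 3L, for replicate 1, replicate 2 and the replicate-set list. Replicate 1 peaks at about 2 kb, replicate 2 and the replicate set at their lower limits of 1301 and 1001 bp, and spacing is shortest in the replicate set.

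Scores were centred alike in both replicates but spread more in replicate 1. Their median was 0.66 in replicate 1 (quartiles 0.55 and 0.80) and 0.69 in replicate 2 (quartiles 0.59 and 0.78), with highest values of 3.41 and 1.85. A score of at least 1 was reached by 84 clusters of replicate 1 and 31 of replicate 2. Wider clusters scored higher in replicate 1 (Spearman correlation over 938 clusters 0.61) and less clearly so in replicate 2 (0.30 over 744 clusters), whereas in the replicate-set list the relation was close to none (0.08 over 2491 clusters). These correlations are descriptions across clusters of 1 list, since clusters are not replicates.

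Neighbouring clusters lay at very unequal distances. The median distance between midpoints was 13547 bp in replicate 1 and 17114.5 bp in replicate 2, well under the mean distances of 22933 and 28853 bp. The quartiles of distance were 6033.5 and 29930 bp in replicate 1 and 7866.75 and 36653.5 bp in replicate 2. Short distances under 5 kb made up 20.0% in replicate 1 (187 of 937) and 15.6% in replicate 2 (116 of 743). Distances over 100 kb numbered 21 and 33. In the replicate-set list the median was 5544.5 bp and 1 distance exceeded 100 kb.

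Across fixed windows of 100 kb, cover varied widely in each replicate and was only weakly related between them. Over the 215 full windows, mean cover was 8.89% ± 5.06 (SD over windows) in replicate 1, from 0% to 23.2%, and 6.09% ± 4.02 in replicate 2, from 0% to 19.6%. The correlation of window cover between replicates was weak, with Spearman's rho at 0.20 and Pearson's r at 0.18 over these 215 windows of 1 arm. Both were above the mean of their own list in 55 windows and below it in 65, and they fell on opposite sides in the other 95 windows (45 above only in replicate 1 and 50 only in replicate 2).

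A window was counted as dense when its cover was at least 2 times the mean of its list, which is 17.8% in replicate 1 and 12.2% in replicate 2. There were 11 dense windows in replicate 1, 16 in replicate 2 and 1 in both. Thus 1 of the 11 was dense in replicate 2, a share near that of 16 in all 215 windows. The window dense in both, from 17800001 to 17900000, held 8 clusters with 18.3% cover in replicate 1 and 9 clusters with 19.1% cover in replicate 2. At 48.4% it was also the most covered window of the replicate-set list, with 20 clusters. Next came the window from 19900001 to 20000000, with 16.7% cover in replicate 1, short of its limit, and 16.9% in replicate 2. Its neighbour from 20000001 to 20100000 was among the densest of replicate 2, with 11 clusters and 19.3% cover, while replicate 1 had 2 clusters and 3.47% there. Over 3 windows in a row from 9100001 to 9400000, replicate 1 reached 21.5%, 22.9% and 23.2%, the last its highest value. Replicate 2 had 3.94%, 7.31% and 8.24% there, below its mean in the first window and above it in the other two, but dense in none.

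**Figure D2:**
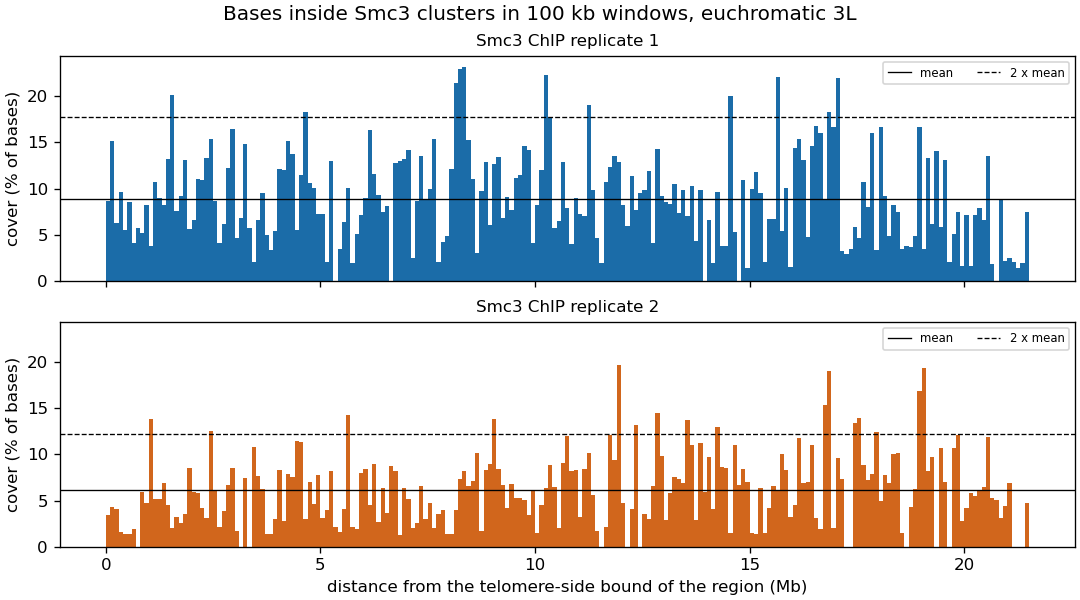
Percent of bases inside Smc3 clusters in the 215 windows of 100 kb of euchromatic 3L, against distance from the telomere-side bound (Mb), for replicate 1 and replicate 2. Lines mark the mean of each list (8.89% and 6.09%) and 2 times that mean, and 1 window is dense in both replicates.

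**Figure D3:**
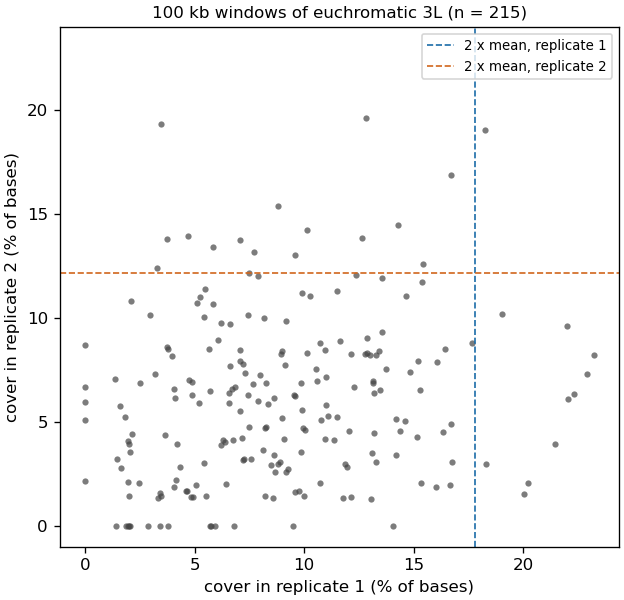
Cover of each 100 kb window in replicate 1 (x axis, percent of bases) against replicate 2 (y axis, percent of bases), with 2 times the mean of each list as dashed lines. Of 215 points, 1 lies beyond both lines, and the points form a broad cloud with a Spearman correlation of 0.20.

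Along the arm in steps of 1 Mb, cover ran from 5.62% to 13.9% in replicate 1 and from 2.87% to 8.26% in replicate 2, leaving out the last, shorter step. The Mb from 17000001 to 18000000 was the most covered in both, at 13.9% with 71 clusters in replicate 1 and 8.26% with 44 clusters in replicate 2. It was also the most covered in the replicate-set list, at 25.6%. Both replicates had their least cover in the last step, from 22000001 to the bound. There replicate 1 held 8 clusters and 2.85% cover, replicate 2 held 7 clusters and 2.15%, and the replicate-set list had 8.91%. Within that step the cover was uneven: the window from 22400001 to 22500000, the last full one, had 7.50% (replicate 1), 4.78% (replicate 2) and 11.7% (replicate set), against 1.98%, 0% and 3.03% in the window before it.

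Empty windows were few, and none was empty in both replicates. No base lay inside a cluster in 5 of the 215 windows in replicate 1 and in 14 in replicate 2, and the replicate-set list left none empty. Of the 14 windows of replicate 2, 3 were consecutive, from 22100001 to 22400000, where replicate 1 had 1 cluster per window and cover of 2.04%, 1.43% and 1.98%. They lay in the longest stretch without a cluster of replicate 2, 359 kb from 22041955 to 22400576. It was overlapped by 5 clusters of replicate 1. The last of these, from 22399960 to 22401955, ran past its end and was shared with replicate 2. The longest stretch without a cluster of replicate 1 was 212 kb, from 21647117 to 21858629, and held 4 clusters of replicate 2.

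Bases outside the clusters of both replicates fell into 1357 stretches, of which 60 were longer than 50 kb and 6 longer than 100 kb. The longest, from 20555311 to 20687443, was 132 kb, and the next, from 6315771 to 6439133, was 123 kb. The replicate-set list was also sparse there, with 2 clusters and 1.69% cover in the first and 2 clusters and 2.34% in the second. The second stretch includes the longest gap of the replicate-set list, 111 kb from 6321641 to 6433045. The others of the 5 longest were 118 kb from 22117913 to 22236334, 111 kb from 3642611 to 3753559 and 106 kb from 12514620 to 12620723. These were overlapped by 6, 10 and 4 clusters of the replicate-set list, not all of them wholly inside. The stretch with 10, at 11.8% cover in the replicate-set list, was thus empty only in the separate lists. Whether reads can be placed uniquely in these stretches was not tested.

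Under 50% of the clusters of either replicate overlapped a cluster of the other by at least 1 bp. In replicate 1, 320 of 938 were found in replicate 2, 34.1% (95% exact Clopper-Pearson interval 31.1 to 37.2), against 51.8% of all clusters of that list. In replicate 2, 323 of 744 were found in replicate 1, 43.4% (39.8 to 47.1), against 54.6% of its list. Sharing on euchromatic 3L lay below the share over the whole series in both lists. Those lists also hold pericentric sequence, and its part in this difference was not tested. Intervals cover counting error only. By bases, 525 kb lay inside clusters of both, which was 27.5% of what replicate 1 covered and 40.0% for replicate 2. Of all bases of the region, replicate 2 covered 6.08% and replicate 1 covered 8.87%.

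Merged over both replicates, clusters formed 1357 loci, of which 318 (23.4%) held clusters of both, 618 of replicate 1 only and 421 of replicate 2 only. Neither this share of loci nor the shares of bases above were set beside the whole series. Loci of both occurred at 14.8 per Mb, with a median distance of 42.3 kb and a longest distance of 558 kb between neighbours. Bases inside clusters of both occurred in 164 of the 215 windows, and 51 windows had none. By Mb, the smallest share of replicate 2 was in the Mb from 15000001 to 16000000, where 7 of 32 clusters of replicate 1 (21.9%) and 7 of 43 of replicate 2 (16.3%) were shared. The smallest share of replicate 1 was in the Mb from 20000001 to 21000000, with 7 of 33 (21.2%) against 8 of 42 in replicate 2 (19.0%). In the densest Mb, from 17000001 to 18000000, 28 of 71 and 26 of 44 were shared.

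Loci of both replicates were defined by overlap, which by itself limits how far apart the midpoints of a pair can lie. Of the 318 loci, 311 consisted of 1 cluster of each replicate. The midpoints of these pairs were a median of 186 bp apart, within 100 bp in 107 pairs (34.4%) and within 500 bp in 250. The shorter cluster lay wholly inside the longer in the median pair, and 295 of the 311 overlapped over at least 50% of the shorter one. The cluster of replicate 1 was the wider in 239 pairs and that of replicate 2 in 71, with 1 pair of equal width. The median widths were 2039 and 1757 bp.

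Scores of the 311 pairs were only loosely related between replicates, with Spearman's rho at 0.18 and Pearson's r at 0.26. Over the 107 pairs with midpoints within 100 bp, rho was 0.34, and over the 61 pairs more than 500 bp apart it was 0.12. The closely placed pairs had a median score of 0.80 in replicate 1 and 0.65 in replicate 2, and those more than 500 bp apart 0.74 and 0.69. These are descriptions across loci of 1 arm.

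**Figure D4:**
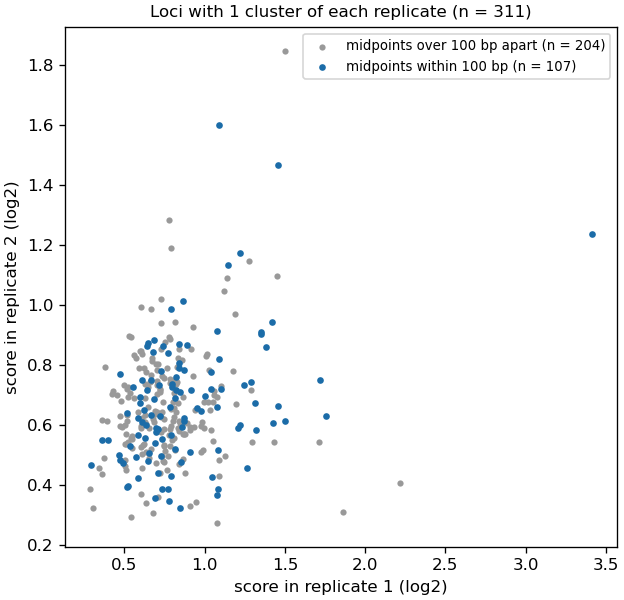
Score (log2) in replicate 1 against replicate 2 for the 311 loci with 1 cluster of each replicate, with the 107 pairs whose midpoints lie within 100 bp in blue and the other 204 in grey. Most points form 1 cloud with little relation between the axes (Spearman 0.18), and few loci are high in both.

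The score went with sharing in opposite directions in the replicates. In replicate 1, clusters found in replicate 2 had a median score of 0.75 and the others 0.62. In replicate 2, clusters found in replicate 1 had a lower median score, 0.63, than the others, at 0.72.

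With each list cut at its quartiles of score, shares in replicate 1 went from 21.3% in the lowest group (50 of 235, 95% exact interval 16.2 to 27.1) to 57.4% in the highest (135 of 235, 50.9 to 63.9). In replicate 2 they went from 59.1% in the lowest (110 of 186, 51.7 to 66.3) to 35.5% in the highest (66 of 186, 28.6 to 42.8). Width did not show this split: from the narrowest to the widest quartile group the share went from 17.0% to 50.2% in replicate 1 and from 26.9% to 58.1% in replicate 2. A wider cluster also has more bases that can be touched.

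The reversal in replicate 2 held among narrow and wide clusters alike. Among clusters narrower than the median, the median score was 0.60 for the 130 found and 0.67 for the 241 not found, and among the others 0.68 for the 193 found and 0.76 for the 180 not found. In replicate 1 the narrower clusters differed little, at 0.58 for the 97 found and 0.56 for the 372 not found. Its wider clusters had 0.83 for the 223 found and 0.73 for the 246 not found. The scores can also be read as ratios. When 2 to the power of the score is divided by 1 constant per list, nearly all scores become reduced ratios of whole numbers. In replicate 2 the median sum of numerator and denominator was 158 for clusters not found and 228 for those found. It was also lower for those not found among narrower clusters, at 146 against 172, and among the wider ones, at 184.5 against 265. In replicate 1 the sums were 260.5 for clusters not found and 321 for those found, but nearly equal within widths, at 223 and 227 for the narrower and 368.5 and 365 for the wider. Reduced ratios lose common factors, so these sums are no read counts, and their part in the reversal was not tested.

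**Figure D5:**
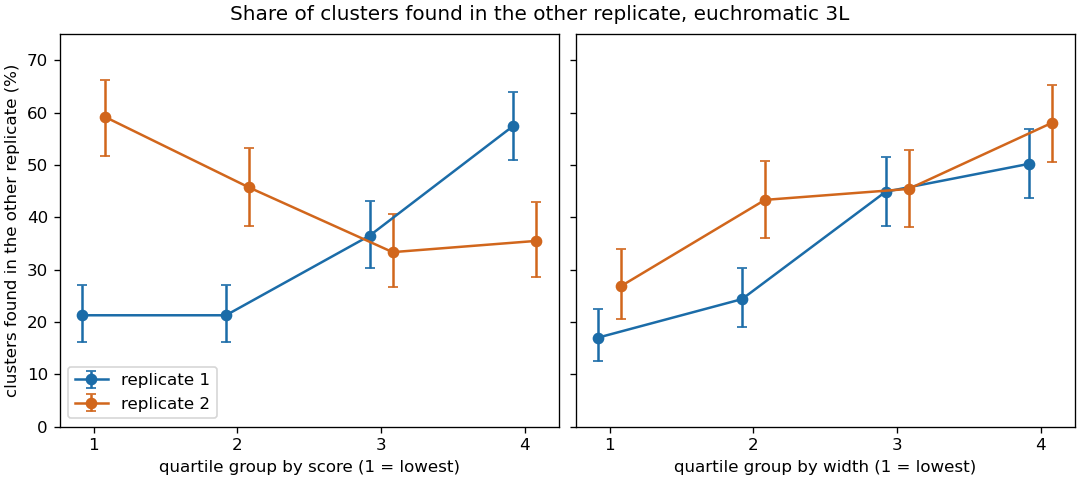
Percent of clusters of euchromatic 3L found in the other replicate, by quartile group of the list in score (left) and width (right), with 95% exact binomial intervals, for replicate 1 and replicate 2. With score the share climbs in replicate 1 from 21.3% to 57.4% and goes down in replicate 2 from 59.1% to 35.5%, while with width it is higher in the widest than in the narrowest group of both.

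Among the 10 replicate-set clusters of highest score that were found in both replicates, 6 had a score of at least 1 in each. At the cluster from 12638346 to 12640444, scored 1.45 in the replicate-set list, the replicates gave 1.46 and 1.47. In the replicates it ran from 12638353 to 12640426 and from 12638362 to 12640445, so its edges differed by 9 and 19 bp. The locus from 16462300 to 16464468 was also nearly equal, at 1.22 and 1.17. The locus from 14182690 to 14185536 had 1.45 and 1.10. Apart from that first locus, where its score was the higher by a small margin, replicate 2 was the higher at 2 loci: from 14819530 to 14822052, where its highest score on euchromatic 3L of 1.85 met 1.50 in replicate 1, and from 18707822 to 18710366, with 1.60 against 1.09. The sixth, from 21490642 to 21492900, was far higher in replicate 1, at 3.41 against 1.24.

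The remaining 4 of the 10 scored under 1 in replicate 2. The locus from 2461472 to 2463598 had 2.21 in replicate 1 and 0.41 in replicate 2. For the cluster from 9808482 to 9811524 the scores were 1.72 and 0.75, for that from 11515516 to 11517720 they were 1.76 and 0.63, and for that from 10934132 to 10936268 they were 1.35 and 0.90. The score in the replicate-set list alone thus did not separate loci high in both from loci high in 1 replicate.

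The widest stretches inside 1 cluster of each replicate were short, from 2.53 to 4.01 kb over the 10 widest. The first, from 3192519 to 3196525, was a cluster of replicate 2 (score 0.84) lying wholly inside one of 6762 bp in replicate 1 (1.01). The second, from 3475428 to 3478945, was 3.52 kb long, with scores of 1.35 in replicate 1 and 0.91 in replicate 2. The third, from 3334645 to 3337726, was 3.08 kb long, with 0.69 and 0.54. Together with the stretch from 3249477 to 3252105 (2.63 kb, 1.32 and 0.58), 4 of the 10 lay within the 400 kb from 3100001 to 3500000, which is 1.86% of the region and held 3.12% of the bases shared by both replicates. That window of 400 kb was picked after its values were seen. Elsewhere lay the stretches from 17432851 to 17435849 (3.00 kb, 1.20 and 0.67) and from 1148846 to 1151752 (2.91 kb, 1.02 and 0.68). The stretch from 9808550 to 9811422 belongs to a high-scoring locus named above. Of the last 3, that from 4552805 to 4555416 scored 1.12 and 1.05, that from 12769491 to 12772029 scored 0.78 and 0.74, and that from 15267480 to 15270013 scored 0.83 and 0.79. Scores in these last 3 differed little between replicates.

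The replicate-set list was not the overlap of the replicates. Of its 2491 enriched clusters on euchromatic 3L, 320 or 12.8% (95% exact interval 11.6 to 14.2) were found in both replicates, against 19.5% of the whole list. Another 592 (23.8%) were found in replicate 1 alone, 389 (15.6%) in replicate 2 alone and 1190 (47.8%, interval 45.8 to 49.8) in neither. Over the whole list these shares were 22.7%, 16.3% and 41.5%. All 318 loci of both replicates overlapped it, as did 902 of 938 clusters in replicate 1 and 713 of 744 in replicate 2. These last counts were not set beside the whole series, so they are not read as particular to 3L. Clusters found in both were wide, with a median of 2240 bp, while those found in neither had a median of 1223 bp. Of the latter, 716 (60.2%) were narrower than 1301 bp, the narrowest width in either replicate's list. Median scores were 0.60 for clusters in both, 0.43 for replicate 1 alone, 0.49 for replicate 2 alone and 0.47 for neither.

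A single region on euchromatic 3L was marked as depleted, 1 of 2 such regions in the whole replicate-set list. It ran from 1864474 to 1866166 with a score of -0.09, the only score below 0 on this stretch. Replicate 1 listed an enriched cluster at the same place, from 1864414 to 1866122, overlapping it by 1649 bp, and that cluster had the lowest score of replicate 1 on euchromatic 3L, at 0.08. Replicate 2 had no cluster there. The nearest cluster of both replicates, at 1849738 to 1851733 in replicate 1 and 1849755 to 1851721 in replicate 2, scored 0.67 and 0.63. One locus was thus given as enriched in 1 list and as depleted in another.

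Arms 2L and 3R, between the same distances from their ends, were set beside 3L. Cover in replicates 1 and 2 was 9.23% and 8.29% on 2L and 9.57% and 6.36% on 3R, against 8.87% and 6.08% on 3L. Shares found in the other replicate were 41.1% and 39.5% on 2L and 34.6% and 46.3% on 3R. The most covered window reached 40.0% and 54.2% on 2L and 25.5% and 32.0% on 3R, against 23.2% and 19.6% on 3L. Windows dense in replicates 1 and 2 numbered 11 and 12 of 200 on 2L and 18 and 19 of 249 on 3R. Those dense in both replicates numbered 5 on 2L and 2 on 3R, and the correlation of window cover was 0.41 and 0.25 (Spearman). The lower score of shared clusters in replicate 2 was also seen there, at 0.66 against 0.71 on 2L and 0.61 against 0.69 on 3R. No difference between arms was tested, since each arm was measured in the same 2 samples.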

How the data were processed

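The authors called clusters on each ChIP replicate and on the replicate set and deposited a score for each, read here as log2. Bowtie 0.12.7 appears among the tools, per the submitters' processing notes. The build is FlyBase release 5, per the file headers. Caller, thresholds, treatment of repeats and the making of the replicate set: not given in the sources used here. The gene table at hand is on release 6, so no gene or sequence is placed here.

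Cover counts bases inside clusters, over 215 full windows of 100 kb. Sharing needed 1 bp of overlap. The depleted region stayed out of counts of enriched clusters. Score ratios used constants of 1.326, 1.333 and 1.329 (replicate 1, replicate 2, replicate set), which gave whole-number ratios for 99.9%, 99.9% and 99.6% of scores within 1e-12, with denominators up to 3000. Among constants that fitted nearly as well as the best, the one with the smallest median sum of numerator and denominator was taken. Small ratios are thus favoured by the choice. Other constants can fit as well, and sums depend on the choice.

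No test was run. Shares carry exact Clopper-Pearson intervals at 95%. Regions were named by rule: the 10 highest replicate-set scores found in both replicates, the 10 widest shared stretches, windows dense in both, the 5 longest empty stretches and the clusters at the bounds. Others were named after their values were seen. Members and rules were chosen with earlier results of these data known. The interval steps were checked on made-up intervals with Python 3.11.15, and pandas 2.3.3, numpy 2.4.6, scipy 1.17.1 and matplotlib 3.10.9 were also used.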

Additional observations from a re-analysis of the deposited data

How the results depend on the processing

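Of 38 alternative values for 10 results, 15 stayed within the spread or limits of the reported value and 23 moved. Only the window correlation could change sign, and it did so in 0 cases. For cover, density and spacing, each single replicate lies within the SD of the 2 by arithmetic. Those values therefore say nothing on how stable the results are. Over the whole arm, mean cover was 11.8%. Keeping only clusters at or above the lower quartile of score gave 29.3 clusters per Mb, a median spacing of 20266 bp, shares found in the other replicate of 26.9% and 34.1% for replicates 1 and 2, and 9.96% of replicate-set clusters found in both. It also gave 3 windows dense in both, 1 empty in both, a window correlation of 0.10 and a longest empty stretch of 219 kb. Such a cut removes a fixed share of clusters by design, so lower density and wider spacing follow from it. It also leaves fewer clusters that can be overlapped. With midpoints at most 500 bp apart, the shares were 27.1%, 34.1% and 9.39%. Windows dense in both numbered 7 with windows of 50 kb, 0 with windows of 200 kb and 0 when midpoints were counted in place of cover. Windows empty in both numbered 23 with windows of 50 kb and 1 when windows were shifted by 50 kb. The window correlation was 0.27 with windows of 50 kb, 0.29 with 200 kb and 0.27 when shifted. Without 1 replicate, the longest empty stretch was 359 kb in replicate 2 alone and 212 kb in replicate 1 alone, cover 6.08% to 8.87%, density 34.5 to 43.5 clusters per Mb and spacing 13547 to 17114.5 bp. Counting the depleted region, chosen after seeing the data, left the replicate-set share at 12.8%. Counts of dense and empty windows thus depend on the window length. The depth of the samples is unknown and limits every share.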

Other observations

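Several of the highest scores of the replicate-set list on euchromatic 3L were ratios of small whole numbers. These regions were chosen after their values were seen. Of its 10 highest clusters, 6 overlapped no cluster of either replicate, and these 6 were between 1001 and 1103 bp wide. The top 3, from 5107658 to 5108760, from 12869360 to 12870366 and from 19705416 to 19706416, scored 3.87, 3.73 and 3.41, which are reduced ratios of 11 to 1, 10 to 1 and 8 to 1. The next of this kind, from 14260436 to 14261436 and from 15416746 to 15417808, scored 2.29 and 1.73, or 11 to 3 and 5 to 2. The 3 of the 10 that were found in both replicates gave 259 to 59, 227 to 96 and 162 to 79. Small ratios also occurred among other clusters found in both: that from 18707822 to 18710366 gave 15 to 8 in the replicate-set list, and that from 2461449 to 2463609 gave 7 to 2 in replicate 1. Reduced ratios lose common factors, so a small one need not rest on few reads. The constant of each list was also picked to give small sums.

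Replicate 1 had such clusters too. Its scores ranking the second and the third on euchromatic 3L, 3.11 from 16517157 to 16518662 and 2.87 from 21369505 to 21370919, were ratios of 13 to 2 and 11 to 2, and neither was found in replicate 2. Its highest, 3.41 from 21490620 to 21492895, gave 611 to 76, and the cluster of replicate 2 there gave 168 to 95.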
